A study of Mus musculus with 12 samples.

Results

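The liver X receptor (LXR) genes and the sterol transporter genes that LXR controls were followed in 12 mouse livers. They are the 7 genes Nr1h2, Nr1h3, Abca1, Abcg1, Abcg5, Abcg8 and Mylip, taken by their gene name from 22093 gene names in a liver RNA-seq table, and all 7 were found. The livers came from male C57BL/6J mice, an inbred strain without a transgene or knockout, that were 21 weeks old after 16 weeks on their diet. There were 4 groups of 3 livers, described by the study as representative animals of each group: a normal diet (ND), a high-fat diet (HFD), the same HFD with 1.5% (w/w) of an ethanol extract of chrysanthemum leaves (CLE, titled CLL in the table), and HFD with 0.003% (w/w) luteolin (LU), a plant flavone. HFD livers were compared with ND livers to see what the diet did, and CLE and LU livers with HFD livers to see what each additive did on that diet.

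LXRα (Nr1h3) and LXRβ (Nr1h2) are nuclear receptors that bind oxysterols, the oxidised forms of cholesterol, and pair with the retinoid X receptor on DNA. When activated they raise the transcription of genes that move cholesterol out of cells. In hepatocytes, ABCG5 and ABCG8 join into a single transporter that secretes cholesterol and plant sterols into bile, while ABCA1 loads cholesterol and phospholipid on apolipoprotein A-I and ABCG1 loads it on formed HDL particles. MYLIP, also called IDOL, is a ubiquitin ligase that marks lipoprotein receptors for breakdown and so limits sterol uptake.

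Levels are FPKM (fragments scaled by transcript length and by the mapped reads of the library), summed over the transcripts of a gene. Tests used limma on log2(FPKM + 1) across the 11543 genes that averaged 0.5 FPKM or more, and all 7 genes passed this filter. A gene was called when its Benjamini-Hochberg adjusted p was under 0.05. Fold changes on the log2(FPKM + 1) scale understate the change of low genes such as Abcg1. In whole liver, more cells of a type and more RNA per cell cannot be told apart.

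Abcg5 and Abcg8 lie head to head on mouse chromosome 17, Abcg5 (ENSMUSG00000040505, chr17:84658234-84683011) on the minus strand and Abcg8 (ENSMUSG00000024254, chr17:84676302-84700333) on the plus strand, in GENCODE M21 coordinates on GRCm38. Their RefSeq start sites are separated by 109 bases, at chr17:84683012-84683120, which lie in an intron of a longer annotated Abcg8 transcript. This interval is printed from RefSeq GRCm38.p6, plus strand, because both genes are read outward from it. Capitals mark the GATA-type motif AGATAA on the opposite strand, which was found at 2 positions.
Abcg5-Abcg8 interval: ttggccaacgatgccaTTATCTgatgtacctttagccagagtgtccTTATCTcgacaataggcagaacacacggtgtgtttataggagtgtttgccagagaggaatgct
Of 32851 RefSeq promoter windows, 3.98% hold AGATAA on either strand in the 109 bases before the start site, and 11.18% in the whole window from 250 bases before to 50 after it. The search for this motif was chosen after the sequence was seen. No match to the LXR element searched was found in the promoter windows of either gene. The element searched was a direct repeat of AGGTCA with 4 bases of any kind between, called DR4, on both strands with up to 2 mismatches. It stands in 3.02% of all windows and in none of the 8 windows that RefSeq gives for 6 of the 7 genes. A site that departs further from AGGTCA is missed by this search, so these windows cannot be said to lack an LXR element.

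Abca1 (ENSMUSG00000015243, chr4:53030787-53159895, minus strand) was the only one of these genes whose window held a match when 3 mismatches were allowed, a looser search added after the stricter one found nothing. At that setting 21.88% of all windows hold a match. Whether LXR binds the Abca1 match was not tested. The 250 bases before the RefSeq start site, chr4:53159896-53160145, are printed on the minus strand with this match, which lies on the opposite strand and begins at -67 from the start site, in capitals.
Abca1 upstream: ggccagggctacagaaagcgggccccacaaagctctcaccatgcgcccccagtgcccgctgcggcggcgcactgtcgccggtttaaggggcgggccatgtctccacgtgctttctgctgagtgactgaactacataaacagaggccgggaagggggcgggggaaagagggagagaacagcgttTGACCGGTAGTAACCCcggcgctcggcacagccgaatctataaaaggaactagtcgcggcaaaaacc
The E-box CACGTG, present in 7.15% of windows, was also found in the Abca1 window. The exact AGGTCA motif (16.26% of windows) and its extended form CAAGGTCA (1.56%) were in none of the 8.

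Both canalicular sterol transporter genes were higher in HFD than in ND livers, together with Abcg1, and no fall was called among the 7 genes. Abcg5 rose 4.13-fold in mean FPKM, Abcg8 2.62-fold and Abcg1 2.36-fold. In this comparison 3 of the 7 genes passed, against 12.1% of all genes tested (1400 of 11543). The median log2 fold change of the 7 was 0.26, and of all genes 0.11.

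Abcg5 was at 26.7, 30.7 and 29.4 FPKM in the ND livers and at 131, 107 and 120 FPKM in the HFD livers. Every HFD liver stood far above every ND liver. The difference was 2.01 on the log2 scale (SE 0.13, limma adjusted p = 3.1e-06), which ranked 3 by p among all genes. Abcg8 was at 22.5, 23.7 and 23.5 FPKM in ND livers and at 63.4, 53.6 and 65.3 FPKM in HFD livers, again without overlap. Its log2 fold change was 1.35 (SE 0.18, limma adjusted p = 0.00055). Both calls held with each liver left out in turn, with adjusted p of at most 5.4e-05 for Abcg5 and 0.0042 for Abcg8.

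**Figure D1:**
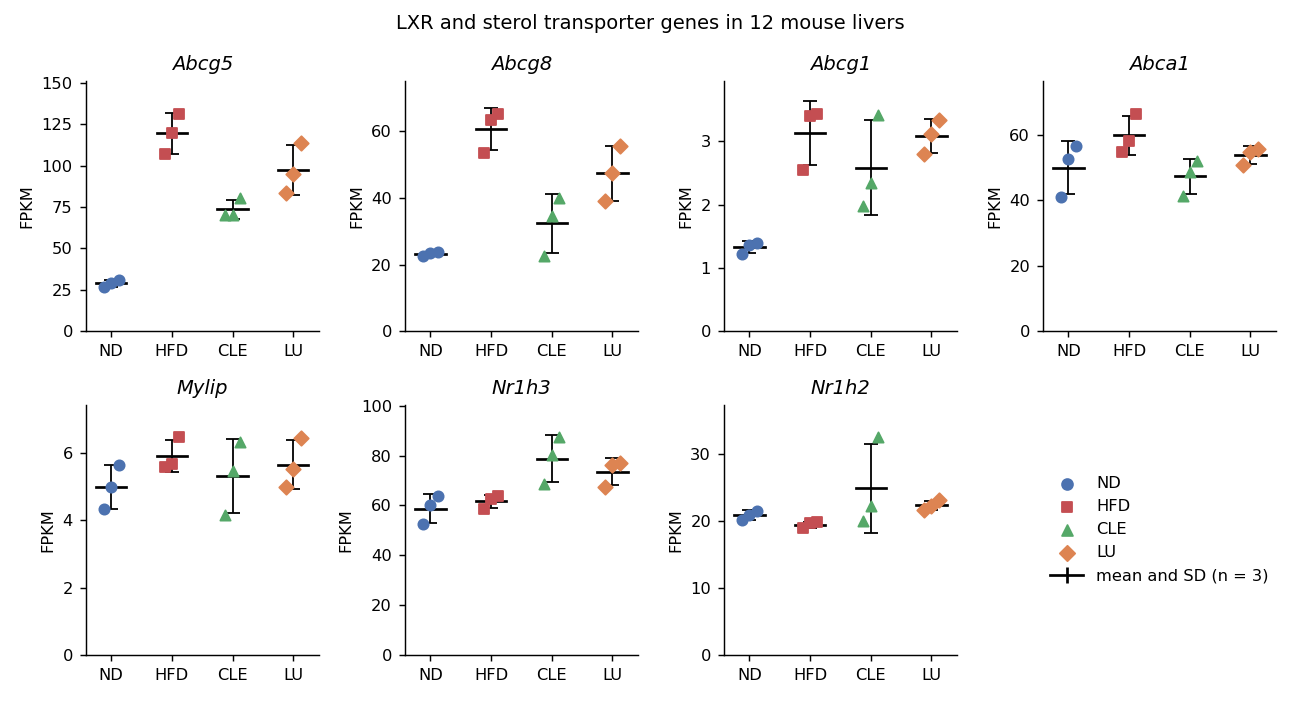
FPKM of each of the 7 genes in every liver, by diet group, with the mean (bar) and SD (whiskers) of 3 livers. The means of Abcg5 and Abcg8 are lowest in ND, highest in HFD and between these in CLE and LU. Those of Abca1, Mylip and Nr1h2 differ less between groups. For Nr1h2 every HFD liver still lies below all other livers, and for Abca1 every CLE liver lies below every HFD liver.

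Because the products of Abcg5 and Abcg8 work as a pair, the ratio of their levels within a liver was also taken. The ratio of Abcg5 FPKM to Abcg8 FPKM was 1.24 ± 0.056 (SD, n = 3) in ND and 1.97 ± 0.12 in HFD, with every HFD liver above every ND liver, so Abcg5 rose by more than Abcg8. It was 2.06 ± 0.077 in LU and 2.40 ± 0.67 in CLE. The CLE spread comes with liver 4, where the ratio was 3.10. In the other CLE livers it was 1.77 and 2.32. Across the 12 livers the levels of both genes had a Pearson r of 0.89 on the log2 scale, a description only, since the livers of a group share a diet and the genes overlap on the chromosome. The minus-strand and plus-strand annotations share the bases from 84676302 to 84683011, and a strand-specific preparation is not stated, so reads of shared bases cannot be told apart.

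**Figure D2:**
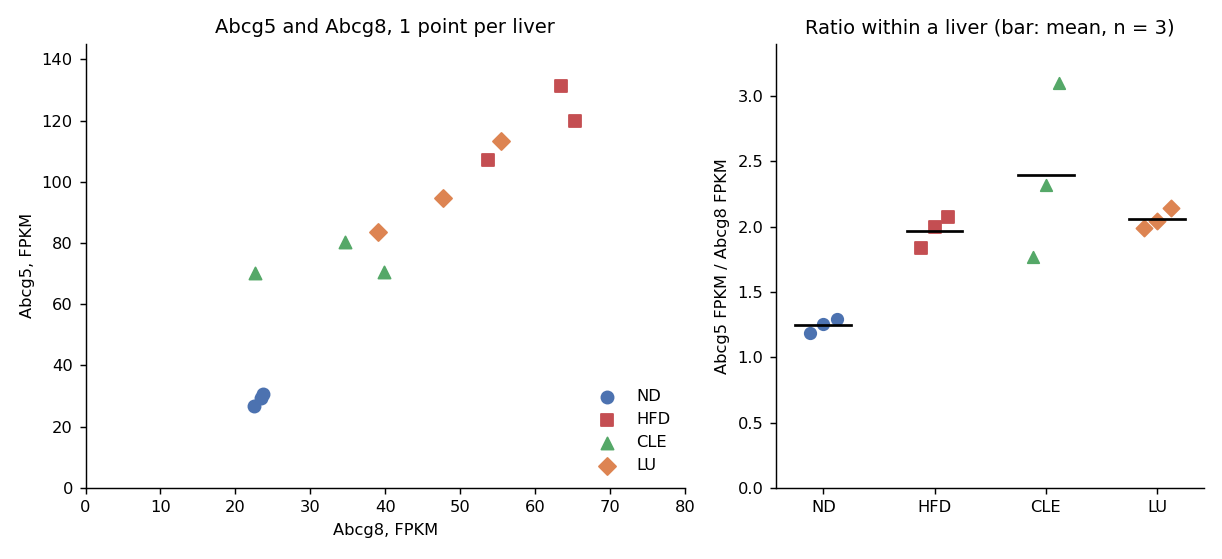
Left, Abcg5 FPKM against Abcg8 FPKM, with 1 point per liver. Right, the ratio of Abcg5 to Abcg8 FPKM in each liver with the group mean (bar), which is 1.24 in ND and between 1.97 and 2.40 in the other groups.

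Abcg1 (ENSMUSG00000024030, chr17:31057675-31117988) was the lowest of the 7 genes. It was at 1.36, 1.22 and 1.4 FPKM in ND livers and at 3.41, 2.55 and 3.44 FPKM in HFD livers, with no overlap. Its log2 fold change was 0.82 (SE 0.15, limma adjusted p = 0.0040), and it passed with every liver left out in turn. Abcg1 is known to be strong in macrophages, so macrophage and Kupffer cell markers are given beside it. The summed FPKM of 11 markers was 156 to 170 in ND, 214 to 308 in HFD, 230 to 283 in CLE and 176 to 289 in LU. In HFD against ND 5 of the 11 were called higher (Csf1r, Cd68, Vsig4, Cd5l and C1qb) and none lower, where 12.1% of all genes were called. Not every marker rose. Cd163, without a call, was at 2.58 to 3.50 FPKM in ND and at 1.72 to 2.39 FPKM in HFD. Marco averaged 5.36 FPKM in ND and 2.70 in HFD, with overlap. Every one of the 11 was detected in each group. The part of these cells in the Abcg1 difference was not tested.

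Abca1, by contrast, did not pass. It was at 40.9, 56.6 and 52.5 FPKM in ND livers and at 58.2, 54.9 and 66.5 FPKM in HFD livers, so the groups overlapped. The log2 fold change was 0.26 with a 95% confidence interval of -0.03 to 0.55 (limma adjusted p = 0.23). The level of Abca1 per Abcg1, 38 ± 8.2 (SD, n = 3) in ND, was 19.3 ± 2.2 in HFD, 19 ± 3.3 in CLE and 17.5 ± 0.71 in LU.

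Mylip (ENSMUSG00000038175, chr13:45389742-45412022) lay between 4.16 and 6.47 FPKM in every liver. The ND livers were at 4.32, 5.00 and 5.63 FPKM and the HFD livers at 5.60, 6.47 and 5.68 FPKM, and the log2 fold change was 0.21 (95% confidence interval -0.10 to 0.52, limma adjusted p = 0.38). Of the receptors on which MYLIP acts, Vldlr, which takes up triglyceride-rich lipoproteins, rose from 0.592 to 0.769 FPKM in ND to 3.38 to 4.74 FPKM in HFD, a log2 fold change of 1.55 (SE 0.22, limma adjusted p = 0.0010). Lrp8, another of these receptors, was at 0.095 FPKM or less in every liver and was under the filter.

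Neither receptor gene was called in HFD against ND. Nr1h3 (ENSMUSG00000002108, chr2:91184061-91202834) was at 60.1, 63.7 and 52.4 FPKM in ND livers and at 62.7, 58.7 and 63.7 FPKM in HFD livers, which overlapped. Its log2 fold change was 0.07 (95% confidence interval -0.18 to 0.32), a sign that turned to -0.08 under median-of-ratios scaling. Nr1h2 (ENSMUSG00000060601, chr7:44549616-44553951) was at 20.9, 21.5 and 20.1 FPKM in ND livers and 18.9, 19.8 and 19.6 FPKM in HFD livers. Every HFD liver lay just below every ND liver, but the difference of -0.10 (95% confidence interval -0.40 to 0.21) did not pass (limma adjusted p = 0.72). With Abcg1, Abcg5 and Abcg8 this makes 4 of the 7 genes whose HFD and ND livers did not overlap, a pattern that 36.5% of all genes showed. Nr1h3 transcripts were the more abundant, at 2.82 ± 0.19 (SD, n = 3) times the Nr1h2 FPKM in ND and 3.18 ± 0.18 times in HFD.

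The FPKM of a typical gene was not on an equal footing between diets. Median-of-ratios scaling moved the median log2 fold change of all genes in HFD against ND from 0.11 to -0.01, and the calls from 1154 higher of 1400 to 620 higher of 1124. Under this scaling the log2 fold changes were 1.85 for Abcg5, 1.19 for Abcg8 and 0.72 for Abcg1, and all 3 genes still passed.

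With the leaf extract, Abcg5 and Abcg8 were lower than on HFD alone. Mean FPKM was 0.617 times the HFD level for Abcg5 and 0.533 times for Abcg8. They were the 2 genes called among the 7, against 6.02% of all genes (695 of 11543), and the median log2 fold change of the 7 was -0.22 against 0.02 for all genes. Both calls were close to the threshold.

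Abcg5 was at 70.4, 70.3 and 80.4 FPKM in the CLE livers, below all HFD livers and above all ND livers. The log2 fold change against HFD was -0.69 (SE 0.13, limma adjusted p = 0.019). Abcg8 was at 39.8, 22.7 and 34.6 FPKM in the CLE livers, all below the HFD livers, and its log2 fold change was -0.92 (SE 0.18, limma adjusted p = 0.022). Liver 4 was the lowest of the CLE livers for Abcg8, inside the ND range. Neither gene passed when HFD liver 12, 15 or 18 or CLE liver 4 was left out, with log2 fold changes of -0.62, -0.76, -0.68 and -0.65 for Abcg5 (limma adjusted p 0.061, 0.057, 0.058 and 0.064) and of -0.89, -1.01, -0.87 and -0.69 for Abcg8 (limma adjusted p 0.065, 0.076, 0.062 and 0.060). When the CLE and HFD livers were fitted without the others, the limma adjusted p was 0.056 for Abcg5 and 0.076 for Abcg8.

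The receptors lay in the other direction without a call. Nr1h3 was at 68.5, 87.3 and 80.2 FPKM in the CLE livers, above every HFD liver, with a log2 fold change of 0.34 (95% confidence interval 0.09 to 0.59, limma adjusted p = 0.081). It passed only without CLE liver 2 (0.43, limma adjusted p = 0.025). Nr1h2 was at 22.1, 32.4 and 19.9 FPKM in the CLE livers, also above every HFD liver, with a log2 fold change of 0.31 (limma adjusted p = 0.17) that was 0.11 without liver 4. Abca1 was at 51.9, 41.4 and 48.8 FPKM in the CLE livers, below every HFD liver, and the log2 fold change was -0.33 (95% confidence interval -0.62 to -0.05, limma adjusted p = 0.12). The CLE and HFD livers of 5 of the 7 genes did not overlap, against 31.3% of all genes. Abcg1 was at 3.43, 1.98 and 2.34 FPKM and Mylip at 5.46, 6.33 and 4.16 FPKM in the CLE livers, and both overlapped HFD, with log2 fold changes of -0.22 and -0.14.

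Base composition moved with these groups. Across 11487 genes, the Spearman correlation between transcript GC content and how far a library stood from the 12-liver mean was -0.37 to -0.14 in the ND and HFD livers and 0.16 to 0.48 in the CLE and LU livers, with the highest value in CLE liver 4. Since no ND or HFD library had a positive value, GC and the additives cannot be told apart. Nr1h2 has more GC than 96.4% of the genes tested and Nr1h3 more than 84.5%, while Abcg5 stands at 53.6% and Abcg8 at 67.1%. With each library corrected for GC, a step added after the data were seen, CLE against HFD became 0.15 for Nr1h3 and 0.02 for Nr1h2 but stayed at -0.69 for Abcg5 and -1.01 for Abcg8, which both passed (limma adjusted p 0.029 and 0.027).

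In the luteolin livers the mean levels of Abcg5 and Abcg8 lay between those of ND and HFD. Abcg5 was at 113, 83.5 and 94.7 FPKM and Abcg8 at 55.5, 39.0 and 47.6 FPKM, and each overlapped the HFD livers through LU liver 2. Their means were 0.814 and 0.780 times the HFD means. The log2 fold changes were -0.30 (95% confidence interval -0.57 to -0.03, limma adjusted p = 0.21) and -0.36 (95% confidence interval -0.75 to 0.03, limma adjusted p = 0.27).

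None of the 7 genes was called by limma in LU against HFD, where 1.03% of all genes were (119 of 11543). At an unadjusted p under 0.05 in limma there were 2, Abcg5 and Nr1h3, where 2340 of all 11543 genes were under it. Nr1h3 was at 76.3, 77.0 and 67.4 FPKM in the LU livers, above every HFD liver, with a log2 fold change of 0.25 (limma adjusted p = 0.25) that was 0.13 with the GC correction. Nr1h2, at 21.6, 23.0 and 22.2 FPKM, was also above every HFD liver, with a log2 fold change of 0.19. These were the only 2 of the 7 genes whose LU and HFD livers did not overlap, against 30.0% of all genes. Abcg1 was at 2.81, 3.34 and 3.12 FPKM, Abca1 at 50.9, 55.9 and 54.8 FPKM and Mylip at 5.00, 6.46 and 5.51 FPKM, with log2 fold changes of -0.01, -0.15 and -0.06. Adipocyte markers, though low, moved with this group. Adipoq averaged 0.589 FPKM in LU and 0.0123 in HFD, Plin1 0.230 and 0.00716, and Lep 0.167 in LU while it was listed at 0 in every other liver. The LU livers of these 3 markers lay above all other livers, those of Retn overlapped HFD, and the summed FPKM of all 5, nearly all of it Cidec, was 72.9 to 170 in LU and 73.1 to 83.5 in HFD. Their part in the LU values was not tested.

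**Figure D3:**
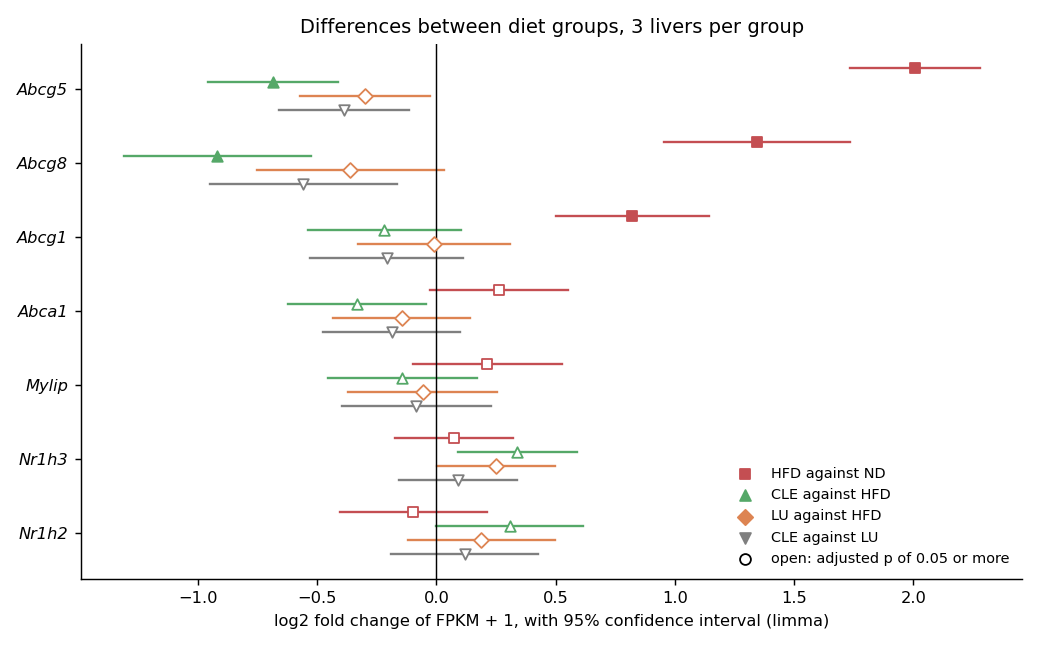
Log2 fold change of FPKM + 1 with its 95% confidence interval (limma) for each gene and 4 contrasts (HFD versus ND, CLE and LU versus HFD, CLE versus LU), with filled markers for an adjusted p under 0.05. Filled markers are Abcg5, Abcg8 and Abcg1 in HFD against ND and Abcg5 and Abcg8 in CLE against HFD.

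Set against ND, which shares the ND livers with the first comparison, both supplemented groups kept higher levels of Abcg5. CLE against ND gave log2 fold changes of 1.32 for Abcg5 (limma adjusted p = 2.0e-04), 0.60 for Abcg1 (limma adjusted p = 0.013) and 0.41 for Nr1h3 (limma adjusted p = 0.022), so 3 of the 7 genes were called against 27.0% of all genes. Abcg8 was at 0.43 (limma adjusted p = 0.091), and passed only without CLE liver 4 (0.66, limma adjusted p = 0.016). The Nr1h3 call was lost without ND liver 4 (0.33, limma adjusted p = 0.088), CLE liver 4 (0.34, limma adjusted p = 0.072) or CLE liver 11 (0.40, limma adjusted p = 0.053), under median-of-ratios scaling (0.24), with the GC (0.07) or length (0.21) correction, with the CLE and ND livers fitted alone (limma adjusted p = 0.069) and with the replicate numbers as a block (limma adjusted p = 0.34). The Abcg1 call was lost with the GC correction (0.40, limma adjusted p = 0.075), the most abundant transcript (0.48, limma adjusted p = 0.070), known transcripts (0.49, limma adjusted p = 0.057) and the replicate number block (0.61, limma adjusted p = 0.11). LU against ND gave 1.71 for Abcg5 (limma adjusted p = 2.3e-05), 0.98 for Abcg8 (limma adjusted p = 0.0067) and 0.81 for Abcg1 (limma adjusted p = 0.0063), again 3 of 7, against 15% of all genes. Nr1h3 was at 0.32 (limma adjusted p = 0.073), and its limma adjusted p was 0.046 when CLE liver 2 or CLE liver 4 left the fit.

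The additives differ in kind and dose, an extract at 1.5% and a single compound at 0.003% of the diet, and CLE and LU livers were also compared directly over the 7 genes. Limma called none of the 7, against 0.00866% of all genes (1 of 11543). The log2 difference of CLE from LU was -0.39 for Abcg5 (95% confidence interval -0.66 to -0.11, unadjusted p = 0.0092 in limma) and -0.56 for Abcg8 (95% confidence interval -0.95 to -0.17, unadjusted p = 0.0089 in limma), and both had an adjusted p of 0.97. Every CLE liver was below every LU liver for Abcg5, while Abcg8 overlapped. For the other 5 genes the estimates ran from -0.21 for Abcg1 to 0.12 for Nr1h2, with intervals that included 0. These intervals do not show that the additives act alike.

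The sums were made up of different transcript mixtures. Abcg5 rested mainly on its known full-length transcript, 70.4% of the sum, whose mean FPKM was 23.0 in ND, 91.7 in HFD, 46.5 in CLE and 63.3 in LU, the same order as the gene. Abcg8 was spread over 4 transcripts. Of the known ones, the first, 33.4% of the sum, had means of 7.45, 20.3, 10.3 and 16.6 FPKM in ND, HFD, CLE and LU, and the next, 25.8%, had means of 8.27, 21.7, 4.58 and 7.59 FPKM, below its ND mean in both supplemented groups. An assembled model (24.8%) was at 4.31, 11.3, 10.1 and 15 FPKM and a further known transcript (14.6%) at 3.21, 7.39, 5.02 and 8.22 FPKM. These last 2 had a higher mean in LU than in HFD, unlike the first 2.

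Abca1 depended on the transcripts counted. Its known full-length transcript made up 20.6% of the sum and had means of 13.3 FPKM in ND, 13.7 in HFD, 8.41 in CLE and 7.95 in LU. An assembled model that covers only the 3' end of the gene, chr4:53030502-53037719, made up 40.5% and ran the other way, with means of 13.9, 21.1, 22.3 and 28.2 FPKM. A longer assembled 3' model, chr4:53030502-53050926, made up 32.8%, at 18.9, 22.3, 13.9 and 14.2 FPKM. Taking known transcripts alone gave log2 fold changes of -0.52 for CLE and -0.59 for LU against HFD, whereas the most abundant model alone gave 0.13 and 0.47. In LU against ND that model gave 1.00 (limma adjusted p = 0.027), against 0.12 for the sum. How far these models are separate RNAs was not tested.

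**Figure D4:**
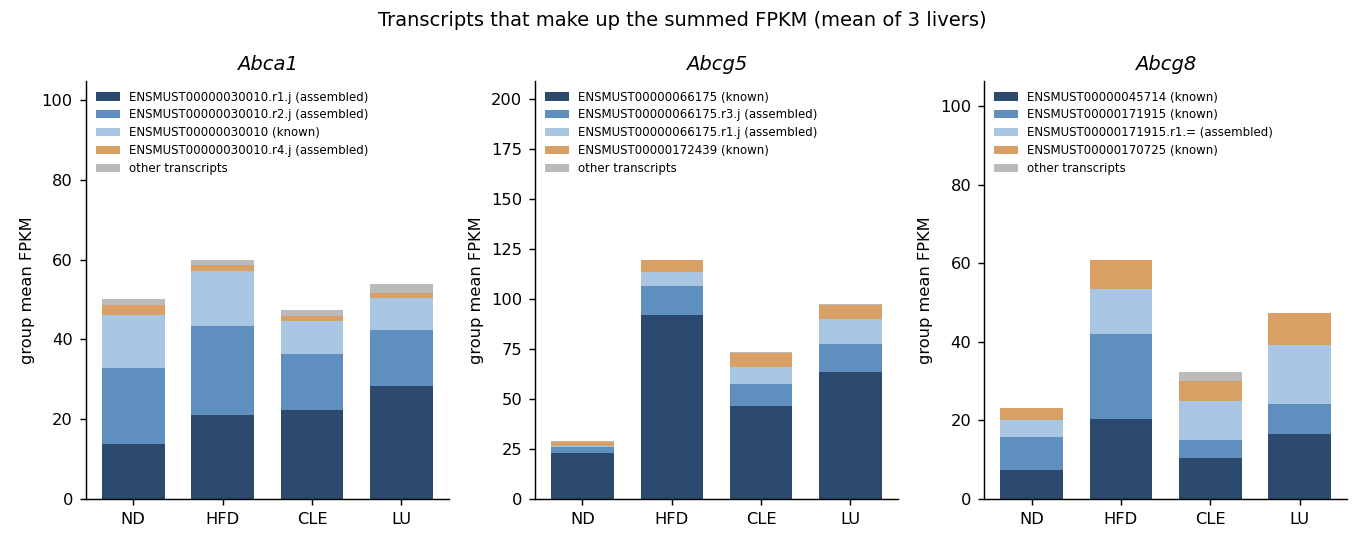
Group mean FPKM (3 livers) of the transcripts that sum to Abca1, Abcg5 and Abcg8, stacked by transcript, known or assembled. For Abcg5 the known transcript rises from 23.0 FPKM in ND to 91.7 in HFD, while for Abca1 the known transcript (13.3 to 7.95 FPKM from ND to LU) and the short assembled model (13.9 to 28.2 FPKM) differ in direction.

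Other genes of the pathway were counted by list. The partners through which LXR works, the retinoid X receptors and coregulators such as Ncor1, Ncoa1, Ncoa2 and Med1, made up 8 genes. None of the 8 was called in HFD against ND (median 0.10) or under either additive against HFD. At an unadjusted p under 0.05 in limma there was 1 in HFD against ND, 2 in CLE against HFD and 4 in LU against HFD. Of all 11543 genes, 3142, 3399 and 2340 were under this threshold in the same comparisons. Of 13 other LXR target genes, 4 were called higher and 1 lower in HFD against ND, where 12.1% of all genes were called. The median log2 fold change of the 13 was 0.39, against 0.11 for all genes.

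Lpl, the lipase that frees fatty acids from circulating triglyceride, rose from 3.60 ± 1.1 FPKM (SD, n = 3) in ND to 17.2 ± 1.8 in HFD, a log2 fold change of 2.0 (limma adjusted p = 6.0e-05). Srebf1, the transcription factor of fatty acid synthesis, rose from 13.2 ± 1.9 to 45.8 ± 5.2 FPKM, a log2 fold change of 1.72 (limma adjusted p = 0.0088) that was 1.20 with the most abundant transcript alone (limma adjusted p = 0.17). Pltp, which transfers phospholipid between lipoproteins, fell by 1.17 on the log2 scale (limma adjusted p = 0.019), a call lost without HFD liver 12 (-1.19, limma adjusted p = 0.053) or 15 (-0.98, limma adjusted p = 0.074). Srebf1 and Lpl, like Abca1 and Mylip, were not called in CLE or LU against HFD, with the lowest LU liver for Srebf1 at 12.6 FPKM, in the ND range of 11 to 14.5 FPKM.

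Of these 13 targets, 2 were called lower in CLE and 2 in LU than in HFD. Of all genes, 6.02% and 1.03% were called in these comparisons. Smpdl3a, a phosphodiesterase named here after its values were seen, was at -0.56 in CLE against HFD (limma adjusted p = 0.033). In HFD against ND it was at 0.48 (limma adjusted p = 0.027), a call lost in 6 of 12 fits without a liver and under median-of-ratios scaling, and at -0.015 with the most abundant transcript alone. Cyp7a1, the rate-limiting enzyme of bile acid synthesis, was at 120 ± 37 FPKM (SD, n = 3) in HFD and lower in both supplemented groups. In LU it was at 45.8 ± 11 FPKM, a log2 fold change of -1.35 (limma adjusted p = 0.039). This call was lost with the GC correction (-1.17, limma adjusted p = 0.077) and with no filter (limma adjusted p = 0.093). In CLE it was at 59.8 ± 5.9 FPKM, every CLE liver below every HFD liver, a log2 fold change of -0.95 without a call (limma adjusted p = 0.053). Neither additive call held with every liver left out: the limma adjusted p rose as far as 0.12 for Smpdl3a in CLE and 0.16 for Cyp7a1 in LU.

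**Figure D5:**
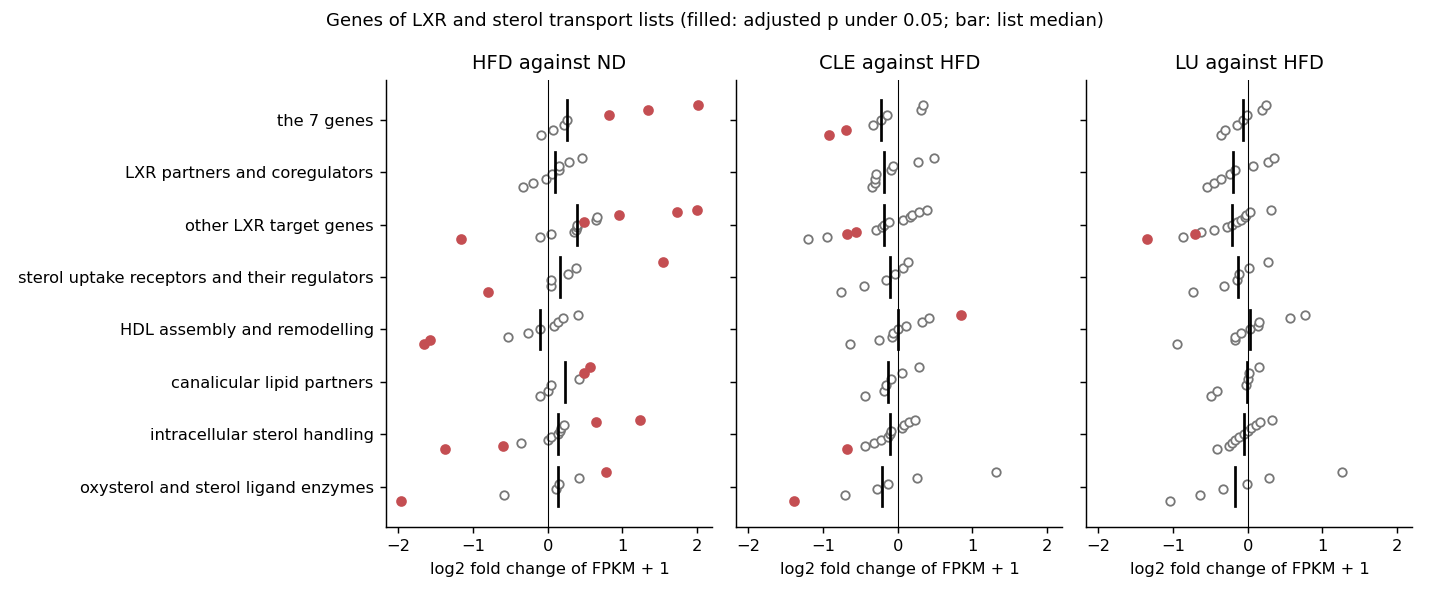
Log2 fold change of FPKM + 1 of every tested gene in the 7-gene set and 7 related lists, for HFD versus ND and for CLE and LU versus HFD, with filled points for an adjusted p under 0.05 and a bar at each list's median. Abcg5 (2.01), Lpl (2.0) and Srebf1 (1.72) lie farthest to the right in HFD against ND.

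Sterol uptake and intracellular handling moved in both directions in HFD against ND, where 12.1% of all genes were called. Of 6 tested uptake genes 1 rose, Vldlr, and 1 fell. Of 11 intracellular sterol genes, 2 rose and 2 fell. Gramd1b, which carries cholesterol from the plasma membrane to the endoplasmic reticulum, rose by 1.23 on the log2 scale (limma adjusted p = 1.8e-04) and was lower in CLE than in HFD (-0.68, limma adjusted p = 0.026), but known transcripts alone gave 0.30 and -0.05. Stard4, a sterol carrier, fell by 1.37 (limma adjusted p = 0.0061). Soat2, which esterifies cholesterol, was at 0.64 and Nceh1, a cholesterol ester hydrolase, at -0.60.

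In HFD against ND, where 12.1% of all genes were called, 2 of 9 HDL genes fell. They were Apom, by 1.66 on the log2 scale, and Apoa4, by 1.57 (limma adjusted p 1.6e-04 and 0.037). Apoa1, the acceptor for ABCA1, was at 0.84 in CLE against HFD (limma adjusted p = 0.037) and at 0.77 in LU against HFD without a call (limma adjusted p = 0.083). The CLE call was lost with the GC correction (0.65, limma adjusted p = 0.076), no filter, the CLE and HFD livers alone or the most abundant transcript. Of 6 canalicular partners of ABCG5 and ABCG8, Atp8b1, a phospholipid flippase, was at 0.56 and Abcc2, an exporter of conjugates, at 0.49 in HFD against ND (limma adjusted p 0.024 and 0.047), and neither passed with median-of-ratios scaling. Of 6 tested enzymes that make or clear sterol ligands, Cyp7b1, an oxysterol hydroxylase, fell from 119 ± 19 to 29.7 ± 4.0 FPKM in HFD (limma adjusted p = 0.0049). Cyp46a1, the cholesterol 24-hydroxylase, was at 0.78 on the log2 scale in the same comparison.

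These lists were chosen with earlier results of these data known, so their shares of calls are a description only. Over all of them, 17 of 59 genes tested (28.8%) were called in HFD against ND, where 12.1% of all genes were. Of the 17, 9 were called with every liver left out in turn, among them Lpl, Srebf1, Vldlr, Apom, Gramd1b, Stard4 and Cyp7b1. The other 8 lost their call without at least 1 ND or HFD liver, with an adjusted p as high as 0.16 for Abcc2. Of the 5 called in CLE against HFD (8.47%, against 6.02% of all genes) and the 2 in LU against HFD (3.39%, against 1.03%), 0 kept it throughout. Of the HFD calls named above, those of Lpl, Pltp, Vldlr, Apom, Stard4 and Cyp7b1 were kept under every other setting that tested them, and each of the rest was lost under at least 1.

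Liver markers were present at high level. The summed FPKM of 6 hepatocyte markers ran from 9858 to 15703, while the pancreas, intestine and adipocyte markers were at 0.76 FPKM or less in every liver, apart from Fabp2 and Cidec, which liver also expresses. Albumin, however, is listed at 0 in 11 of the 12 livers. Stellate cell markers were at 16.4 to 22.4 summed FPKM in ND and 38.7 to 47.1 in HFD, with 4 of 6 called higher. Endothelial markers were at 67.5 to 80.2 in ND and 86.1 to 90.7 in HFD, with 1 of 6 called higher. Of all genes, 12.1% were called in this comparison. The part of these cells in the differences above was not tested. No liver held identical values to another, and the summed FPKM of a library ran from 1698823 to 5575486. The p-values of the main fit rest on the spread between single livers within a group. This spread is pooled over the 4 groups of 3 mice and moderated across genes by limma.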

How the data were processed

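Liver mRNA from 12 mice was sequenced as paired-end TruSeq libraries. Per the labels and methods, the authors used CASAVA 1.8.2, Bowtie2 2.2.3, TopHat2 2.0.12 and Cufflinks 2.2.1, and deposited FPKM per transcript. They also computed normalization factors (DEGES), but whether these enter the FPKM values, the genome build and any strand setting are not given in the sources used here. Of the known transcripts found in GENCODE M21, 87.6% had its GRCm38 start and end. The table holds 152210 transcripts (73424 assembled, from a merge over 30 samples), of which 6316 without a gene name were left out. Albumin was at 0 in 11 livers.

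FPKM was summed per gene name. Differences were tested with limma 3.58.1 (R 4.3.3, trended empirical Bayes) on log2(FPKM + 1), since FPKM values are no counts, for 11543 genes averaging 0.5 FPKM or more, in a single fit of 12 livers, with Benjamini-Hochberg adjustment at 0.05. Cufflinks divides reads among transcripts, so read depth is unknown and no counting interval is given. The code was tested on simulated data. Alternatives were the pseudocount, filter, scaling, groups in the fit, transcripts, replicate block and each liver left out. The setting of known transcripts also kept assembled models marked as matching a known transcript, among them models of Abcg8 and Abcg1. GC and length corrections were chosen after seeing the data. The 7 genes and all lists were chosen with earlier results of these data known. Of the listed genes, those passing in HFD against ND or either additive against HFD were named, at most 4 per list by fold change, with Vldlr and Lrp8 whatever their values, and up to 3 genes most correlated with each of the 7. Some genes that meet this rule are not reported here. Of 109 listed genes 108 were in the table (not Adgre1). Promoter sequences are from RefSeq GRCm38.p6, with windows for 6 of the 7 genes.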

Additional observations from a re-analysis of the deposited data

How the results depend on the processing

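Read depth is not known, and 3 livers per group limit the precision. The rises of Abcg5, Abcg8 and Abcg1 in HFD against ND kept their direction and call under every alternative that tested them (the 5 FPKM filter left Abcg1 out). The cause of the changes below was not tested, beyond the fewer or more genes and livers that a setting itself brings. Genes passing (of all tested) came to 125 for CLE against HFD, 56 for LU against HFD and 3 for CLE against LU with no filter, and to 0 for CLE against LU with a mean of at least 5 FPKM (limma, where that fit has 1 call at 0.5 FPKM). With the 2 compared groups alone they were 95, 272 and 1812 for CLE against HFD, LU against HFD and CLE against ND. With the most abundant transcript they were 647, 263 and 2 for HFD against ND, CLE against HFD and CLE against LU, and with known transcripts 718 and 2 for HFD against ND and CLE against LU. With the GC correction they were 350 for CLE against HFD and 2025 for CLE against ND, of which 853 were higher, against 2416 of 3120. Median-of-ratios scaling gave 1219 higher of 2839 in CLE against ND, and 714 of 1756, against 1293 of 1730, in LU against ND. Of the 7 genes, 1 passed in CLE against HFD with no filter (Abcg5, Abcg8 having an adjusted p of 0.054), 0 with the 2 groups alone, and 1 in CLE against ND with the GC correction.

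The replicate numbers that CLE and LU share with ND were not used to pair the livers in the main fit. Correlations of same-numbered livers' deviations ran from -0.26 to 0.18, which cannot show whether such livers were handled together. With the replicate block, fitted on the same-numbered groups alone, 1070 genes passed in CLE against ND and 836 in LU against ND, and 1 of the 7 genes, Abcg5, passed in CLE against ND. HFD shares no number with another group.

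Leaving out each liver gave 659 to 1661 genes for HFD against ND, 28 to 2187 for CLE against HFD, 11 to 545 for LU against HFD, 1598 to 3682 for CLE against ND, 640 to 2493 for LU against ND and 1 to 3 for CLE against LU. Of the 7 genes, 0 to 3 passed in CLE against HFD.

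Log2 fold changes that turned sign had all been uncalled, apart from Smpdl3a and Atp8b1 in HFD against ND. Under median-of-ratios scaling these were Nr1h3 (-0.084) in HFD against ND, Abcg1 in LU against HFD (0.013), Mylip in CLE against ND (-0.077), and Nr1h2 (-0.032) and Abca1 (-0.012) in LU against ND. With the most abundant transcript they were Smpdl3a in HFD against ND (-0.015), Abca1 in CLE against HFD (0.13), LU against HFD (0.47) and CLE against ND (0.66), Mylip in LU against ND (-0.25) and CLE against LU (0.43), and Nr1h2 in CLE against LU (-0.086). Known transcripts gave Atp8b1 -0.074 in HFD against ND, Abca1 -0.51 in LU against ND and 0.075 in CLE against LU, and the same Mylip values. The GC correction gave Nr1h3 -0.073 in HFD against ND, Nr1h2 -0.21 and Mylip -0.026 in CLE against ND, and Nr1h2 -0.22 in LU against ND. The length correction gave Nr1h3 -0.071 in HFD against ND, Abcg1 0.10 in LU against HFD, Mylip -0.030 in CLE against ND and Nr1h2 -0.058 in LU against ND. Leave-one-out ranges crossed 0 for Nr1h3 (-0.0056 to 0.13) in HFD against ND, Abcg1 (-0.12 to 0.046) and Mylip (-0.14 to 0.014) in LU against HFD, Abca1 (-0.21 to 0.023) and Mylip (-0.045 to 0.21) in CLE against ND, Abca1 (-0.019 to 0.21) in LU against ND, and Nr1h2 (-0.082 to 0.26) and Mylip (-0.20 to 0.054) in CLE against LU.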

Other observations

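The genes whose levels ran most like each of the 7 over the 12 livers are given as a description, by Pearson's r of log2(FPKM + 1), with no test, since the livers share diets and library composition. For Abcg5 they were Cd82 (0.974), which encodes a tetraspanin membrane protein, Pgrmc1 (0.973), a haem-binding membrane protein, and Slc22a18 (0.970), an organic cation carrier. For Abcg8 they included Sord (0.961), sorbitol dehydrogenase, and Tmem220 (0.960). For Abcg1 they were Themis (0.957), Gnai1 (0.957) and Nfam1 (0.949). Abcg5 and Abcg8 had an r of 0.890 with each other. That is a pair set beforehand, while the genes named here were picked as the highest of all tested, so the values cannot be compared.

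For Nr1h3 the closest genes were Prkcsh (0.978), Kat2a (0.970) and Ecsit (0.970), and for Nr1h2 they were Neurl2 (0.954), Gigyf1 (0.948) and Lzts2 (0.946). For Abca1 they were Rbbp9 (0.934), Tmco3 (0.930) and Zak (0.927). The lowest maximum was that of Mylip, with Fbxo18 (0.873), 1700112E06Rik (0.869) and Timp3 (0.868).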
